A study of Rattus norvegicus with 24 samples.

Results

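The brain, liver and pancreas miRNAs described here are 8 of the 719 rat miRNAs on a microarray that was hybridised with lung RNA. They were chosen by name, as the main arm of the stems miR-122, miR-124, miR-9a, miR-128, miR-129, miR-375, miR-216a and miR-217. The data came from 24 Fischer-344 rats, 1 array per rat, in 4 groups of 6 rats with 3 males and 3 females in each. The control group inhaled filtered clean air, and the other groups inhaled hexanal, an aldehyde, at 600, 1000 or 1500 ppm for 5 weeks, for 4 h a day on 5 days a week. The rats were about 7 to 8 weeks old at the start, and all groups were of 1 strain with no genetic change named in the labels. The protocol text gives the same dose numbers in mg per cubic metre, so that ppm is used here as the name of a dose. Whole lung tissue was extracted, so that fewer cells of a type and less of a miRNA per cell cannot be told apart.

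A miRNA is a short RNA that pairs through its seed, bases 2 to 8 from the 5′ end, with messenger RNAs and lowers their translation or stability. Some miRNAs are made in very large amounts in a few cell types and serve as markers of an organ. miR-122 is the main miRNA of hepatocytes, miR-124, miR-9, miR-128 and miR-129 are known from neurons and other neural cells, miR-216a and miR-217 from acinar cells of the pancreas, and miR-375 from pancreatic islets and from neuroendocrine and some other epithelial cells. In lung RNA they are therefore a contrast set to the miRNAs of lung cells.

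Mature sequences were found in RefSeq (build GRCr8) for 7 of the 8 miRNAs, and rno-miR-124-3p is named only. They are shown in order of the number of arrays on which each was detected, because the detection described next separates them, and the capitals mark the seed.
rno-miR-375-3p: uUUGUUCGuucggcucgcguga
rno-miR-128-3p: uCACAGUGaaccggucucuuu
rno-miR-122-5p: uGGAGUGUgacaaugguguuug
rno-miR-216a-5p: uAAUCUCAgcuggcaacuguga
rno-miR-217-5p: uACUGCAUcaggaacugacugg
rno-miR-9a-5p: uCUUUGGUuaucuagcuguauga
rno-miR-129-5p: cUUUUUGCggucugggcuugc
The 7 seeds all differed from each other, and no other miRNA of the array with a RefSeq mature sequence of the same name (641 of 719) had one of these seeds. The closest relative of rno-miR-216a-5p on the array was rno-miR-216b-5p, 4 single-base edits away, and that of rno-miR-9a-5p was rno-miR-9b-5p, 6 edits away. Both relatives were detected on 0 of 24 arrays. Other closest relatives were farther away and were detected. They were rno-miR-139-5p for rno-miR-128-3p (7 edits, 24 arrays) and rno-miR-324-3p for rno-miR-217-5p (7 edits, 24 arrays). For rno-miR-122-5p it was rno-miR-1-3p (8 edits, 20 arrays) and for rno-miR-375-3p rno-miR-341 (9 edits, 6 arrays). Whether a probe also binds a relative was not tested.

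RefSeq places the hairpin of rno-miR-375-3p at chr9:83906582-83906656 on the minus strand of GRCr8 and that of rno-miR-122-5p at chr18:61028817-61028901 on the plus strand. rno-miR-128-3p comes from 2 hairpins, at chr13:42251884-42251965 on the plus strand within the span of R3hdm1 and at chr8:120963795-120963878 on the minus strand within the span of Arpp21. The hairpins of rno-miR-216a-5p at chr14:106725077-106725182 and of rno-miR-217-5p at chr14:106732485-106732589 are neighbours on the plus strand, both inside the long non-coding RNA genes LOC102550402 and LOC102550342. rno-miR-9a-5p has 3 loci and rno-miR-129-5p has 2. An array probe reads the mature miRNA and cannot tell the loci of 1 miRNA apart.

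Of the 8 miRNAs, 3 were detected on all 24 arrays, 2 on some arrays and 3 on none. Detection here is the scanner software's flag for a miRNA on an array (gIsGeneDetected), which summarises all its probes. rno-miR-375-3p, rno-miR-128-3p and rno-miR-122-5p were detected in every rat. rno-miR-216a-5p was detected on 18 arrays and rno-miR-217-5p on 1, that of control male 3. The neural miRNAs rno-miR-124-3p, rno-miR-9a-5p and rno-miR-129-5p were detected on 0 of 24 arrays. Over all 719 miRNAs of the array 51.9% were detected on at least 1 array and 33.2% on all arrays, so that 5 of 8 and 3 of 8 lay near the shares of the array as a whole. Between 3 and 5 of the 8 were detected in each rat.

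The spots gave a finer scale of the same measurement. Each miRNA was printed as 2 probes, or 4 for rno-miR-216a-5p, with several spots each, and the software flags each spot that is well above its background (gIsWellAboveBG). All 473 spots kept for rno-miR-375-3p and all 454 for rno-miR-128-3p were flagged. For rno-miR-122-5p 380 of 467 spots (81.4%) were flagged, for rno-miR-216a-5p 39 of 475 (8.21%), for rno-miR-217-5p 3 of 459 and for rno-miR-9a-5p 1 of 440. None of the 463 spots of rno-miR-124-3p and none of the 448 spots of rno-miR-129-5p was flagged. Among the 4 miRNAs known from neural cells, 2 thus had no spot above background on these arrays, 1 had a single spot, and rno-miR-128-3p had every spot above background.

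**Figure D1:**
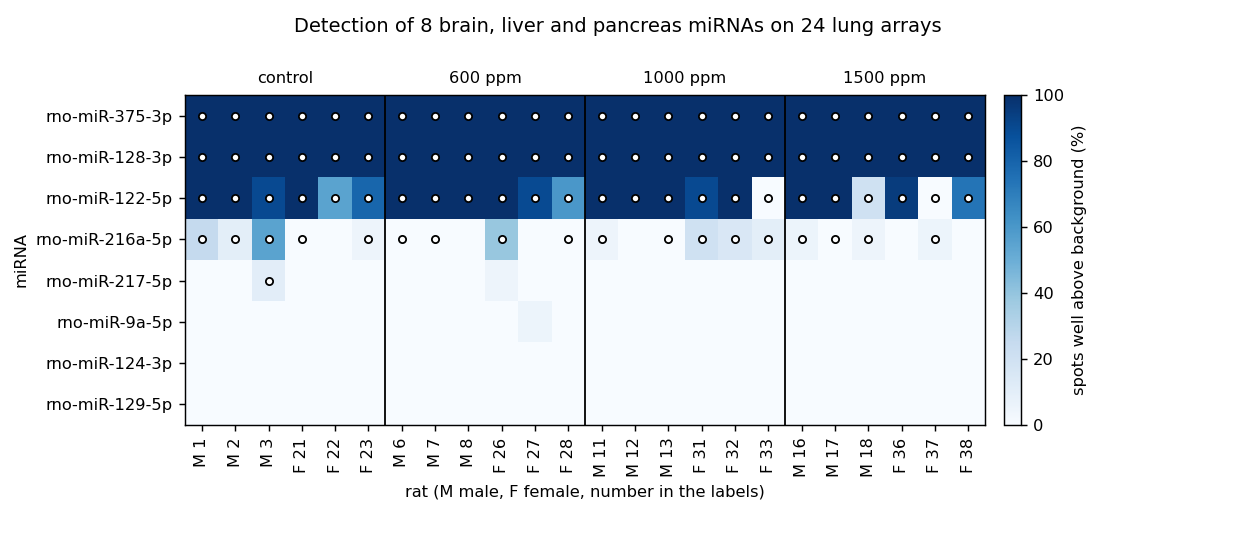
Each column is 1 rat and each row 1 of the 8 miRNAs, the shade gives the percentage of that miRNA's spots well above background and a white circle marks arrays where the software called the miRNA detected. rno-miR-375-3p and rno-miR-128-3p are dark in all 24 columns, rno-miR-122-5p is pale in 3 exposed rats, and the 4 lowest rows are blank but for 4 spots in all. The flags are set before scaling. After scaling the rno-miR-122-5p intensity of control male 3, which is dark here, was within the range of those 3 rats.

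The 2 flags disagreed for the weak miRNAs. rno-miR-216a-5p was called detected on 18 arrays, but most spots of at least 1 probe were well above background on only 4 of them, those of control males 1 and 3, the female 26 at 600 ppm and the female 31 at 1000 ppm. Its total gene signal, the software's summed intensity before scaling, was at most 9.44 and was listed at 0.1 where it was not called. rno-miR-122-5p was called detected in the female 33 at 1000 ppm with 0 of 18 spots flagged and in the female 37 at 1500 ppm with 0 of 20. The male 18 at 1500 ppm had 4 of 20 spots flagged. The total gene signal in these 3 rats was 6.87, 5.28 and 5.57, against 94.8 in control male 2, the highest of all rats before scaling. After scaling the highest was the male 16 at 1500 ppm, with an intensity of 67.8 against 60.7 in control male 2. The scaled intensity of the same 3 rats was 8.82, 7.52 and 8.74. That of control male 3, with 18 of 20 spots flagged, was 8.39. The flags precede scaling, and those of rno-miR-122-5p are therefore not read as a change in level.

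No difference in detection between exposed and control rats passed the test. rno-miR-216a-5p was detected in 13 of 18 exposed and 5 of 6 control rats (Fisher's exact test, two-sided, p = 1, adjusted p = 1). rno-miR-217-5p was detected in 0 of 18 exposed and 1 of 6 control rats (Fisher's exact test, two-sided, p = 0.25, adjusted p = 0.5 over the 2 miRNAs tested). In the order control, 600, 1000 and 1500 ppm, rno-miR-216a-5p was called in 5, 4, 5 and 4 of 6 rats, and 19 of 119, 7 of 118, 10 of 120 and 3 of 118 of its spots were flagged. On slides 1, 2 and 3 it was called on 6, 7 and 5 of 8 arrays, and 19 of 160, 10 of 156 and 10 of 159 of its spots were flagged. The flags are set before arrays are scaled to each other. After scaling its median intensity was 3.50, 4.74 and 4.97 on these slides, and in the order of the groups 5.15, 3.38, 4.89 and 4.65. The spot counts by dose are therefore not read as a change in level.

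The opposite arms of the same stems were not detected. All 10 partner arms on the array were detected on 0 of 24 arrays. rno-miR-124-5p, rno-miR-9a-3p and rno-miR-217-3p had 1 flagged spot each, and the other 7 arms had 0. This included both 5p arms of miR-128 and the partner arms of miR-375 and miR-122, whose main arms were detected in every rat.

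The miRNAs listed for lung cell types were a reference for these counts. They are well known in those cells and were listed with earlier results of these data known, so that their detection is no test of what the tissue held. All 17 miRNAs listed for endothelium, smooth muscle, epithelium, multiciliated cells, leukocytes and red cells were detected on all arrays. Further miRNAs known from other organs behaved unevenly. Of 8 other brain miRNAs on the array 2 were detected on all arrays (rno-miR-7a-5p and rno-miR-212-3p), 4 on some and 2 on none. Both other liver miRNAs, rno-miR-192-5p and rno-miR-194-5p, were detected on all arrays. Of the other pancreas miRNAs rno-miR-7b was called on 6 arrays and rno-miR-216b-5p on 0. Among 7 miRNAs of heart and skeletal muscle 3 were detected on all arrays, 1 on some and 3 on none. None of 10 testis miRNAs was detected on all arrays and 8 were on none, and of 8 miRNAs of embryonic stem cells 1 was on all arrays and 6 on none. Over these other-organ lists 8 of 37 miRNAs were detected on all arrays, 9 on some and 20 on none. Over the whole array 239 of 719 miRNAs were detected on all arrays and 346 on none. A miRNA listed for another organ was therefore not always undetected in these lungs, and this held beyond the 8 miRNAs.

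Levels could be tested for rno-miR-375-3p, rno-miR-122-5p and rno-miR-128-3p, the 3 of 8 that passed the filter on dim probes. The level is the log2 of the scaled intensity, averaged over the probes of a miRNA, and is read only across rats for the same miRNA. The arrays lay on 3 slides of 8, and slide was tied to sex and dose. Slide 1 held males only, namely all control and 600 ppm males and 2 of the 1000 ppm males. Slide 3 held females only, 2 at 600 ppm and all 3 at each of 1000 and 1500 ppm. The other 8 arrays, on slide 2, were those of all control females, all 1500 ppm males, the last 600 ppm female and the last 1000 ppm male. Values within slides are therefore given beside the comparisons.

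rno-miR-375-3p had the higher group means in exposed rats, within the spread of the rats. In control rats its log2 level was 7.63 at the lowest, 7.95 at the median and 8.13 at the highest. At 600 ppm the corresponding values were 7.60, 8.06 and 8.75, at 1000 ppm 7.89, 8.22 and 8.91, and at 1500 ppm 7.90, 8.24 and 8.64. Every dose group overlapped the control group. The highest level of all was that of the female 32 at 1000 ppm, with a scaled intensity of 589.3. The lowest was that of the male 8 at 600 ppm, with 210.6. Before scaling the total gene signal of these 2 rats was 909.7 and 209.2.

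The group means were 7.94 ± 0.19 in controls, 8.09 ± 0.42 at 600 ppm, 8.28 ± 0.37 at 1000 ppm and 8.25 ± 0.32 at 1500 ppm (log2 level, SD, n = 6 each). The log2 difference from control was 0.15 (SE 0.18, limma adjusted p = 0.997) at 600 ppm. It was 0.35 (SE 0.18, limma adjusted p = 0.636) at 1000 ppm, a fold of 1.27 with a 95% interval of 0.98 to 1.66, and 5 of 6 rats lay above the control mean. At 1500 ppm it was 0.32 (SE 0.18, limma adjusted p = 0.50), a fold of 1.25 with an interval of 0.96 to 1.62, and 4 of 6 rats lay above the control mean. The slope was 0.23 per 1000 ppm (SE 0.12, limma adjusted p = 0.474). With slide in the model the difference at 1500 ppm fell to 0.13 (SE 0.17, limma adjusted p = 0.856) and the slope to 0.11 (SE 0.11, limma adjusted p = 0.801), while that at 1000 ppm was 0.32 (SE 0.16, limma adjusted p = 0.578). Without the female 32 at 1000 ppm the difference at that dose was 0.22. The difference at 600 ppm was 0.023 without the female 26, 0.094 without control male 3 and 0.25 without the male 8 at 600 ppm.

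Within slides the differences of rno-miR-375-3p were uneven. Among males of slide 1 the log2 difference from control was -0.04 (SE 0.14) at 600 ppm and 0.13 (SE 0.15) at 1000 ppm. On slide 2 the 1 female at 600 ppm was 0.70 (SE 0.30) above the 3 control females, with that rat assumed to vary like the others of the slide. Among females of slide 3 the log2 level at 1000 ppm was 0.26 (SE 0.24) above that at 600 ppm, and at 1500 ppm it was 0.09 below it (log2 difference -0.09, SE 0.24). No slide held rats at 1500 ppm beside control rats of the same sex, so that no within-slide value exists there.

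rno-miR-122-5p was the most variable of the 3. In control rats its log2 level was 3.50 at the lowest, 4.20 at the median and 5.91 at the highest. At 600 ppm the values were 3.77, 4.56 and 5.83, at 1000 ppm 3.55, 4.22 and 4.80, and at 1500 ppm 3.52, 4.41 and 6.00. Low rats were found in each group, and only the 1000 ppm group lacked a rat above 5. The high rats were control male 2, control female 21, the females 26 and 27 at 600 ppm and the male 16 at 1500 ppm.

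The spread of rno-miR-122-5p within groups was an SD of 0.81 on the log2 scale, the 5th highest of 283 miRNAs tested, whose median was 0.183. With slide removed it was 0.80, the 3rd highest. The 4 miRNAs with a larger spread within groups were rno-miR-1-3p, rno-miR-3588, rno-miR-133b-3p and rno-miR-133a-3p, named after their values were seen, 3 of which are known from heart and skeletal muscle. rno-miR-122-5p was also dim, and on 4 arrays at least 1 of its probes lay at the floor below which values have no order. The low values are therefore bounds.

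The group means of rno-miR-122-5p were 4.59 ± 1.00 in controls, 4.66 ± 0.79 at 600 ppm, 4.18 ± 0.42 at 1000 ppm and 4.40 ± 0.91 at 1500 ppm (log2 level, SD, n = 6 each). The log2 difference from control was 0.07 (SE 0.44, limma adjusted p = 0.997) at 600 ppm and -0.41 (SE 0.44, limma adjusted p = 0.99) at 1000 ppm. At 1500 ppm it was -0.20 (SE 0.44, limma adjusted p = 0.863), with a 95% interval from a fold of 0.46 to 1.65. These intervals are wide and leave room for a change in either direction. Leaving out 1 rat moved the difference at 1000 ppm to between -0.63, without control male 3, and -0.15, without control male 2, and it was -0.18 without control female 21. With slide in the model the differences were 0.29, -0.15 and -0.09, each with an SE of 0.46 to 0.49 (limma adjusted p from 0.869 to 0.976). Among males of slide 1 they were -0.20 (SE 0.58) at 600 ppm and -0.22 (SE 0.65) at 1000 ppm, and on slide 2 the 1 female at 600 ppm was 1.22 (SE 1.12) above the control females. Among females of slide 3 the log2 difference from 600 ppm was -0.65 (SE 0.49) at 1000 ppm and -0.34 (SE 0.49) at 1500 ppm.

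rno-miR-128-3p was the steadiest of the 3 and showed the smallest differences from control. Its log2 level was 5.94 at the lowest, 6.22 at the median and 6.41 at the highest in control rats, 5.99, 6.09 and 6.41 at 600 ppm, 5.97, 6.24 and 6.34 at 1000 ppm, and 6.09, 6.25 and 6.36 at 1500 ppm. The groups overlapped almost wholly. The log2 difference from control was -0.03 (SE 0.09, limma adjusted p = 0.997) at 600 ppm, 0.01 (SE 0.09, limma adjusted p = 0.991) at 1000 ppm and 0.04 (SE 0.09, limma adjusted p = 0.854) at 1500 ppm. The 95% interval at 1500 ppm ran from a fold of 0.91 to 1.17. With slide in the model the differences were -0.03, -0.03 and -0.10, with an SE of 0.06 each (limma adjusted p from 0.642 to 0.899). Within the males of slide 1 they were -0.03 (SE 0.07) at 600 ppm and -0.01 (SE 0.08) at 1000 ppm, and the 1 female at 600 ppm on slide 2 lay at -0.18 (SE 0.08) from the control females there. Among females of slide 3 the log2 difference from 600 ppm was -0.06 (SE 0.07) at 1000 ppm and -0.21 (SE 0.07, limma adjusted p = 0.328) at 1500 ppm. The second passed an unadjusted threshold of 0.05 and not the adjusted one.

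**Figure D2:**
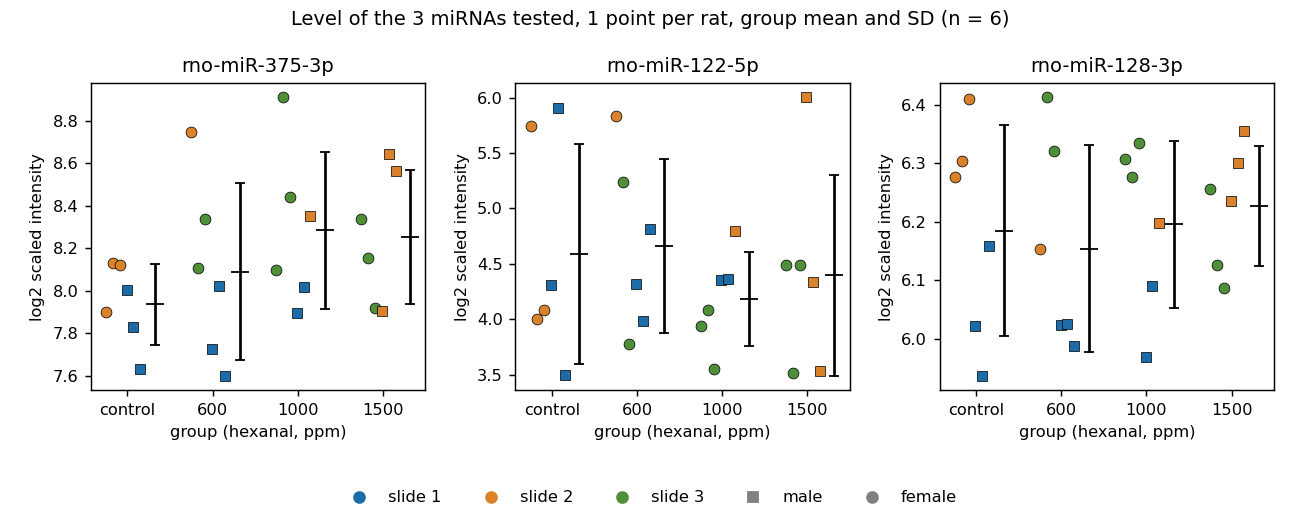
The vertical axis is the log2 scaled intensity of each of the 3 tested miRNAs and the horizontal axis the group, with 1 point per rat, colour for slide, shape for sex, and a bar for the group mean and SD (n = 6). The dose groups overlap the controls in all 3 panels, the points of rno-miR-122-5p span 3.50 to 6.00, and the slide 1 males sit low for rno-miR-375-3p and rno-miR-128-3p.

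None of the 3 miRNAs passed the threshold, an adjusted p of 0.05 over 283 miRNAs, at 600 ppm (0% of all tested miRNAs), 1000 ppm (0%), 1500 ppm (0%), for any dose (0%) or for the dose trend (0%) in limma. At an unadjusted p of 0.05 there were 5, 17, 26, 15 and 29 miRNAs of 283 in these comparisons, and none of the 3 was among them. The lowest limma adjusted p of any of the 3 miRNAs in these comparisons over all alternative settings was 0.273, for the slope of rno-miR-375-3p with sex in the model.

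**Figure D3:**
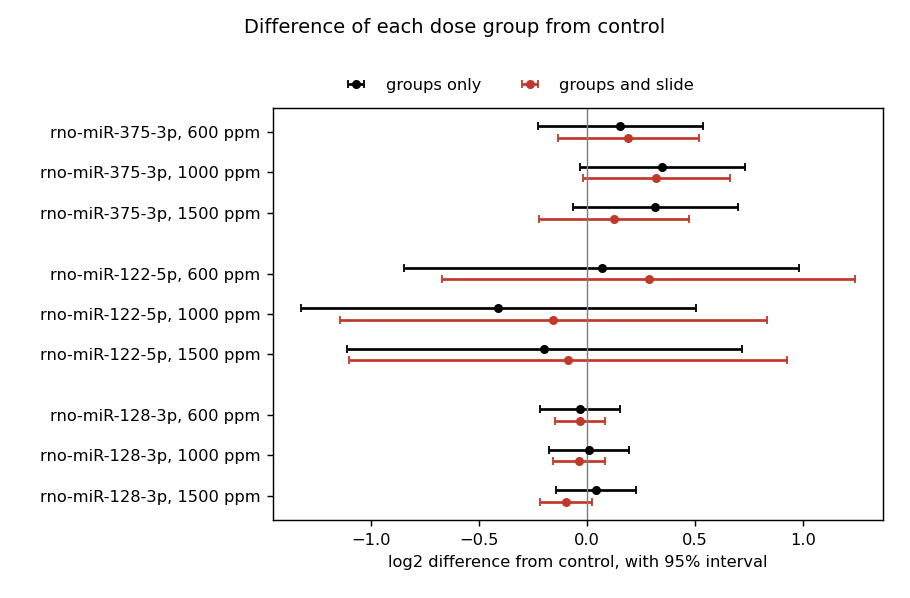
Points are the log2 difference of each dose group from control with its 95% interval, black for the fit with dose groups only and red for the fit with slide added. All 18 intervals cross 0, and those of rno-miR-122-5p are the widest.

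For sex, 1 of the 3 was called. rno-miR-128-3p was lower in males by a log2 difference of -0.16 (SE 0.05, limma adjusted p = 0.0188, male minus female), a fold of 0.893, where 43.8% of all tested miRNAs were called. It was -0.01 (SE 0.06, limma adjusted p = 0.923) between the 4 males and 4 females of slide 2, where the males were all at 1000 or 1500 ppm and the females all controls or at 600 ppm, so that sex and dose cannot be told apart there. It was 0.12 (SE 0.09, limma adjusted p = 0.473) with slide in the model. For rno-miR-375-3p the difference was -0.25 (SE 0.12, limma adjusted p = 0.096) and 0.14 (SE 0.22, limma adjusted p = 0.755) within slide 2. For rno-miR-122-5p it was 0.12 (SE 0.32, limma adjusted p = 0.768) and -0.25 (SE 0.64, limma adjusted p = 0.855) within slide 2.

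The dose by sex term, which asks whether males and females differ in their dose response, was called for rno-miR-128-3p (limma adjusted p = 0.0166), where 25.1% of all tested miRNAs were called, and not with slide in the model (limma adjusted p = 0.765). It had a limma adjusted p of 0.157 for rno-miR-375-3p and 0.65 for rno-miR-122-5p.

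Slide itself went with the level of 2 of the 3, where 59.7% of all tested miRNAs were called. rno-miR-128-3p averaged 6.03 ± 0.07 on slide 1, 6.28 ± 0.08 on slide 2 and 6.27 ± 0.11 on slide 3 (log2 level, SD, n = 8 each; limma adjusted p = 7.03e-05 with dose in the model). rno-miR-375-3p averaged 7.84 ± 0.17, 8.29 ± 0.33 and 8.29 ± 0.30 on the same slides (limma adjusted p = 0.0121). rno-miR-122-5p averaged 4.44 ± 0.70, 4.79 ± 0.96 and 4.14 ± 0.58 (limma adjusted p = 0.339). Slide 1 was thus the low slide for rno-miR-375-3p and rno-miR-128-3p, and since it held males only, sex and slide cannot be told apart there.

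The probes of 1 miRNA did not show the slide difference equally. For rno-miR-375-3p probe A_26_P00001827 ranged from 8.19 to 8.58 on slide 1, from 8.94 to 9.75 on slide 2 and from 8.89 to 9.86 on slide 3. Its values on slide 1 did not overlap those of the other slides, and its mean differences from slide 1 were 0.93 and 0.85. Probe A_26_P00001826 for the same miRNA ranged from 7.00 to 7.47, from 6.84 to 7.74 and from 6.95 to 7.97, and its mean differences from slide 1 were -0.02 and 0.05. A slide difference that was large by 1 probe was therefore near 0 by the other. The dose difference at 1500 ppm was 0.51 by the first probe and 0.12 by the second, whereas at 1000 ppm the probes gave 0.37 and 0.33 (log2 difference from control). The part of slide in these dose differences was not tested by probe.

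For rno-miR-128-3p the mean differences of slides 2 and 3 from slide 1 were 0.43 and 0.36 by probe A_26_P00002580, whose ranges did not overlap, and 0.07 and 0.12 by probe A_26_P00002579. For rno-miR-122-5p they were 0.57 and -0.20 by probe A_26_P00001313, and 0.13 and -0.41 by probe A_26_P00001312. Of the 6 probes of these miRNAs 2 did not overlap between slide 1 and the other slides, and 22.9% of the 555 kept probes of the array did not.

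**Figure D4:**
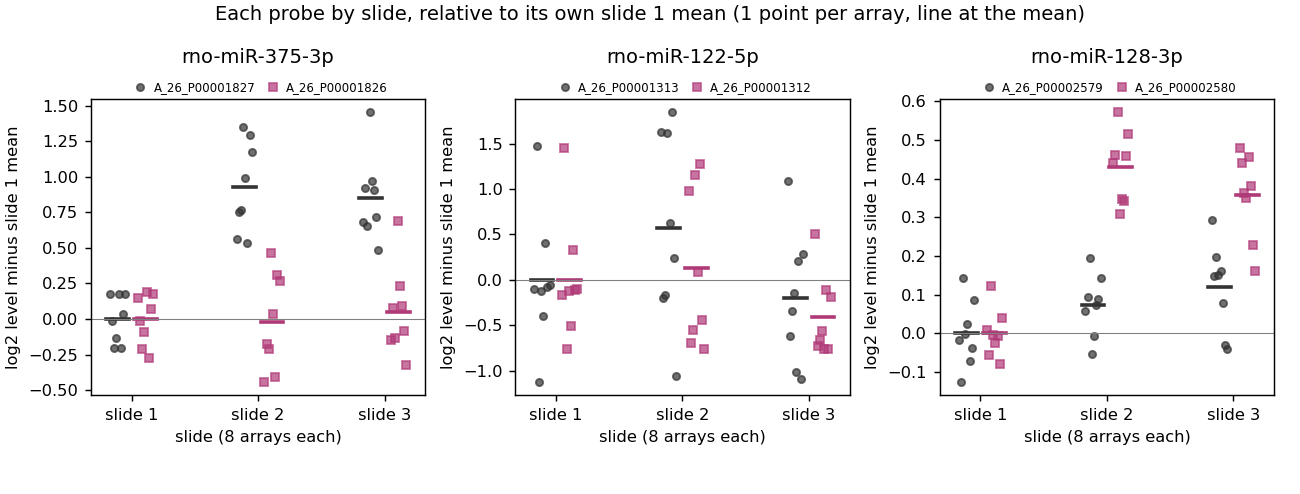
Each point is 1 array and the vertical axis is a probe's log2 level minus that probe's own mean on slide 1, with the 2 probes of each miRNA in 2 colours and a line at the mean of each slide (n = 8). A_26_P00001827 for rno-miR-375-3p rises by 0.93 and 0.85 on slides 2 and 3 while A_26_P00001826 stays at -0.02 and 0.05.

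The level of rno-miR-375-3p went with that of lung epithelial miRNAs on slides 2 and 3, and not on slide 1. Its 3 closest patterns among miRNAs outside the 8, by Pearson r of the log2 level over 24 arrays, were rno-miR-7a-5p (r = 0.84), rno-miR-200b-5p (r = 0.78) and rno-miR-141-3p (r = 0.77). Of these, rno-miR-7a-5p was listed above among the other brain miRNAs, and only rno-miR-141-3p is on the epithelial list. Within slides 1, 2 and 3, r with rno-miR-7a-5p was 0.60, 0.76 and 0.91, whereas with rno-miR-200b-5p it was -0.45, 0.80 and 0.79 and with rno-miR-141-3p 0.01, 0.84 and 0.82. The arrays share slides and a scaling, so that these values only describe the arrays.

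Against the mean log2 level of the 5 epithelial miRNAs (the miR-200 family members rno-miR-200a-3p, rno-miR-200b-3p, rno-miR-200c-3p, rno-miR-141-3p and rno-miR-429), r of rno-miR-375-3p was 0.72 (permutation test, p = 0.00011, adjusted p = 0.00132 over 24 relations of the 3 miRNAs with 8 lists). Spearman's rho was 0.55 (permutation test, p = 0.00574, adjusted p = 0.0689), so that the rank relation did not pass the threshold. The permutations here and for the other relations ran over all 24 arrays without regard to slide. A slide difference shared by a miRNA and a list therefore enters these p-values. Without the 2 rats farthest from the median of the epithelial level r was 0.69, and with slide means taken off it was 0.66. Within slides it was -0.06, 0.78 and 0.69, so that slide 1, the males with the lowest levels, did not show it. The summed scaled intensity of the 5 epithelial miRNAs was 3748 to 4089 in controls, 3902 to 4555 at 600 ppm, 3924 to 4533 at 1000 ppm and 3781 to 4492 at 1500 ppm. Their part in the dose differences of rno-miR-375-3p was not tested.

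**Figure D5:**
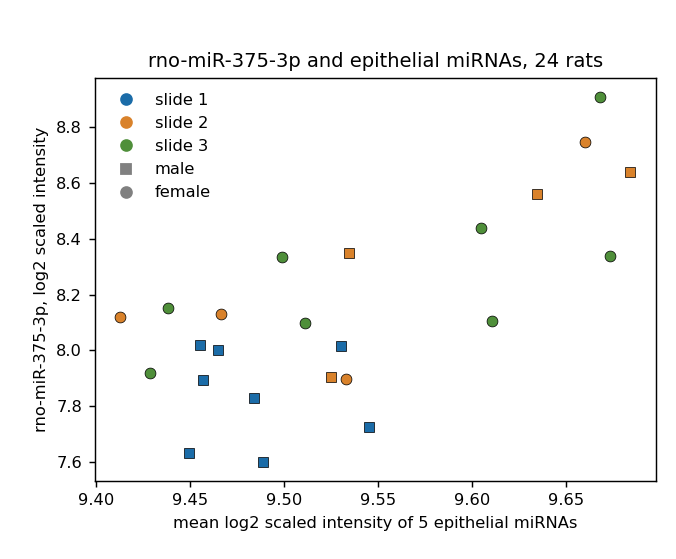
Each point is 1 rat, with the mean log2 scaled intensity of the 5 epithelial miRNAs on the horizontal axis, that of rno-miR-375-3p on the vertical axis, colour for slide and shape for sex. The points of slides 2 and 3 climb together (r = 0.78 and 0.69) and those of slide 1 do not (r = -0.06).

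For rno-miR-128-3p the closest patterns were rno-miR-15b-5p (r = 0.86), rno-miR-672-5p (r = 0.84) and rno-miR-28-5p (r = 0.84). After each slide's mean was taken off, these fell to 0.61, 0.45 and 0.46. The smooth muscle miRNAs rno-miR-143-3p and rno-miR-145-5p went against it, with r = -0.72 (permutation test, p = 9e-05, adjusted p = 0.00132) and rho = -0.62 (permutation test, p = 0.0016, adjusted p = 0.0384). Without the 2 farthest rats r was -0.67, but within slides it was -0.19, -0.53 and 0.55 and with slide means taken off 0.02, so that the relation did not hold within slides. For the red cell miRNAs rno-miR-451-5p and rno-miR-144-3p r was -0.56 (permutation test, p = 0.00439, adjusted p = 0.0351) with rho = -0.52 (permutation test, p = 0.00993, adjusted p = 0.0794), so that the rank relation did not pass the threshold, and r was 0.13 with slide means taken off.

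rno-miR-122-5p resembled no other miRNA closely. Its 3 highest r were 0.43 with rno-miR-181d-5p, 0.41 with rno-miR-181c-5p and 0.38 with rno-miR-466b-1-3p. Against the other liver miRNAs rno-miR-192-5p and rno-miR-194-5p, r was 0.23 (permutation test, p = 0.28, adjusted p = 0.426), and 0.20, 0.68 and 0.47 within slides. Their summed scaled intensity was 59.0 to 100.0 in controls, 60.7 to 127.2 at 600 ppm, 67.8 to 116.5 at 1000 ppm and 70.3 to 93.4 at 1500 ppm. None of the 8 relations of rno-miR-122-5p with a list reached an adjusted p of 0.05, the lowest being 0.16 with heart and skeletal muscle (r = -0.40, permutation test).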

How the data were processed

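Labelled RNA from 24 lungs (100 ng each) was hybridised to 1-colour Agilent arrays. Per the labels and the file headers, the authors scanned them and extracted spot intensities with Feature Extraction 11.5.1.1 (array design on rn4). The deposited series table holds the authors' total gene signal as intensity, without log or scaling, and was an alternative. From the deposited processed spot intensities, outlier spots (3.95%) and control spots were left out, each array was scaled to the 75th percentile of 394 probes above background on all arrays, a floor of 11.3 was set and log2 was taken. Probes above background on at least 6 arrays (555 probes of 283 miRNAs) were kept and averaged per miRNA. Between 260 and 340 miRNAs were detected per array, 27.9% to 38.5% of spots were well above background, and 0 spots were saturated; the number of arrays limits the precision.

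Groups were compared with limma 3.58.1 in R 4.3.3, with Benjamini-Hochberg adjustment over 283 miRNAs and tested on simulated data. Python (pandas 2.3.3, numpy 2.4.6, scipy 1.17.1) served for the exact and permutation tests (100000 draws). The permutations did not keep arrays within their slides. Alternatives were other scalings, floors, filters, probe summaries and background corrections, slide and sex in the model, within-slide fits and leaving out each array. All 8 miRNAs were named, with partner arms as counts and the 3 closest patterns per tested miRNA. The members and lists were chosen with earlier results of these data known. Rat numbers are those of the labels.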

Additional observations from a re-analysis of the deposited data

Results flagged for a closer look

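Without slide in the model, the dose by sex term of limma was called for rno-miR-128-3p (F = 7.43, adjusted p = 0.0166, where 25.1% of all 283 tested miRNAs were called). In males the log2 level at 1500 ppm was 0.26 above that of control males, and in females it was -0.17 from that of control females (3 rats each). The male mean lay below the female mean in controls (6.04 against 6.33), at 600 ppm (6.01 against 6.30) and at 1000 ppm (6.09 against 6.31), and above it at 1500 ppm (6.30 against 6.16). Control males were on slide 1 and the 1500 ppm males on slide 2, and control females on slide 2 and the 1500 ppm females on slide 3. With slide in the model the term had F = 3.14 (limma adjusted p = 0.765). By probe A_26_P00002580 control males lay at 6.08 to 6.26 and 1500 ppm males at 6.48 to 6.65. Control females lay at 6.58 to 6.71 and 1500 ppm females at 6.30 to 6.52. By probe A_26_P00002579 the males lay at 5.79 to 6.06 and 5.99 to 6.06, and the females at 5.97 to 6.11 and 5.88 to 5.99. The mean difference of slide 2 from slide 1 was 0.43 by the first probe and 0.07 by the second. No rat stood apart in any of the 12 groups of 6 examined for the 3 tested miRNAs, where chance alone sets apart about 1 in 20.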

How the results depend on the processing

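None of the 3 miRNAs tested for level was called at 600, 1000 or 1500 ppm, for any dose or for the trend under any alternative. The rest of the 8 were fitted only without the filter on dim probes. Their levels there lay at or close to the floor, so that their not being called says nothing on a change with dose. The call by sex changed most. Against 1 miRNA called, 0 were called with the 75th percentile over all probes, the total gene signal, the series table, quantile normalization, normexp on the median brightness, slide as a block, slide as a random block or within slide 2, and 2 were called with the brightest probe. Leaving out 1 array gave 1 to 2, and the second was rno-miR-375-3p without 1500 ppm male 17, male 18 or female 38 (limma adjusted p = 0.0372, 0.0496 and 0.0435). Against 5 of 8 detected on at least 1 array and 3 on all, 4 and 2 were detected where most spots of a probe had to be well above background, and 6 and 2 where 1 spot sufficed. No detection difference was called. The reason for the changes of sign below was not tested, and all but the sex difference of rno-miR-128-3p were of values not called in the first place. With slide as a block the sex difference of rno-miR-122-5p became -0.15, of rno-miR-128-3p 0.12 and of rno-miR-375-3p 0.029, and rno-miR-128-3p became -0.034 at 1000 ppm, -0.096 at 1500 ppm and -0.060 per 1000 ppm. With slide as a random block rno-miR-128-3p was -0.027, -0.075 and -0.046 in the same comparisons, and the sex difference of rno-miR-122-5p was -0.011. With normexp the sex difference of rno-miR-122-5p was -0.23, and rno-miR-128-3p was 0.30 at 600 ppm, -0.091 at 1000 ppm and -0.026 per 1000 ppm. With the series table rno-miR-128-3p was -0.22 at 1500 ppm, -0.10 per 1000 ppm and 0.033 by sex, with the total gene signal -0.025 at 1500 ppm and -0.0074 per 1000 ppm, and with the brightest probe -0.012 at 1000 ppm. Within slide 1, rno-miR-122-5p was -0.20 and rno-miR-375-3p -0.038 at 600 ppm, and rno-miR-128-3p -0.010 at 1000 ppm. Within slide 2 the sex difference was -0.25 for rno-miR-122-5p and 0.14 for rno-miR-375-3p. Leaving out 1 array, the difference of rno-miR-122-5p at 600 ppm lay between -0.16 and 0.33, that at 1500 ppm between -0.52 and 0.068, and that by sex between -0.040 and 0.25. For rno-miR-128-3p it lay between -0.082 and 0.014 at 600 ppm, while the bounds were -0.039 and 0.056 at 1000 ppm and -0.0077 and 0.087 at 1500 ppm. Values are log2 differences. rno-miR-122-5p and rno-miR-216a-5p lay near background, which limits what their values show. With only probes above background on all 24 arrays rno-miR-122-5p could not be fitted. Without the filter on dim probes rno-miR-216a-5p was tested too and not called. Its mean scaled intensity, 2.81 to 7.51, lay below the floor of 11.3 on all arrays, so that this test could not show a change in level.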
